A study of Mus musculus with 18 samples.

Results

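Htt, the gene that carries the CAG repeat of Huntington's disease, and 7 DNA repair genes whose human counterparts are linked to repeat instability or disease onset were examined in microglia of the mouse striatum. The 7 are Fan1, Msh3, Msh6, Mlh3, Pms1, Pms2 and Lig1. These 8 genes were chosen by symbol, not by any measured value, from the 55536 genes of the count table, and all 8 belong to the 16083 genes with a mean of at least 1 CPM (counts scaled to a common library size). The RNA came from 18 samples of C57BL/6 mice in 4 genotype groups. WT mice (5 samples) carried neither allele. Tyrobp-/- mice (3 samples) lacked Tyrobp, the adaptor protein of several microglial surface receptors, in all cells and for life. Q175 mice (5 samples) carried 1 knock-in Htt allele, in which human exon 1 with a long CAG repeat replaces the mouse exon, beside a normal mouse allele. Q175;Tyrobp-/- mice (5 samples) carried both changes. The 3 Tyrobp-/- samples are the control of the Q175;Tyrobp-/- samples without the repeat allele. Striatal cells were cleared on Percoll and captured on magnetic CD11b beads, which bind myeloid cells in general. Each sample held 1 striatum according to the methods, and a pair according to the labels. The age of the mice is not given in the labels used here. The labels do not state that every sample is a separate animal, so p-values measure the spread between these samples.

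Huntingtin is a large scaffold protein that takes part in vesicle transport and in other processes in nearly all cells. An expanded CAG run in its first exon lengthens further in some tissues during life, and the striatum is known for the largest of these somatic gains. Mismatch repair is known to drive this lengthening. Complexes of the MutS family recognise unpaired or looped bases, MSH3 mainly loops of several bases and MSH6 mainly single mismatches and small loops. Complexes of the MutL family then act on the marked DNA, with MLH3, PMS1 and PMS2 as alternative subunits, and MLH3 and PMS2 carry an endonuclease site. FAN1 is a nuclease of interstrand crosslink repair that holds back repeat expansion. LIG1 is the DNA ligase that closes nicks during replication and repair.

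The mouse repeat is short. Htt (ENSMUSG00000029104) lies on chromosome 5 of GRCm38 from 34761740 to 34912534 on the plus strand. The start of its coding sequence, in exon 1 of transcript Htt-201 at chr5:34761907-34762023, is printed because it holds the site at which the Q175 allele differs from the mouse allele. Capitals mark the run of codons for glutamine in the reference mouse.
Htt-201, plus strand: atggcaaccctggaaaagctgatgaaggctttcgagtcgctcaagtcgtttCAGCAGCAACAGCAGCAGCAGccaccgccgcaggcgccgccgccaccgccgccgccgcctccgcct
This run at chr5:34761958-34761978 has 7 glutamine codons, of which 6 are CAG, and it fills codons 18 to 24 of 3120. Its longest stretch of CAG without another codon is 4. The longest such stretch in the coding sequence of each of the 7 repair genes is 2. Reads were counted per gene, so the count of Htt in the Q175 groups adds reads of both alleles and does not measure repeat length.

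Total counts per sample were between 11260410 and 29771983. Tyrobp had 409.9, 382 and 314 normalized counts in Tyrobp-/- and 176, 279.7, 244, 265 and 245 in Q175;Tyrobp-/- samples, against at least 3649.8 in WT and at least 3976 in Q175 samples. Normalized counts are counts divided by the library size after edgeR's trimmed mean (TMM) scaling and set to the mean library size. All 10 microglial markers had a count in every sample, and their geometric mean was between 7900 and 22600 normalized counts. Transcripts of other cells were also present. The geometric mean of 10 astrocyte markers was between 285 and 535 in WT and between 645 and 1940 in Q175 samples. It was between 348 and 1590 in Tyrobp-/- and between 336 and 1410 in Q175;Tyrobp-/- samples. That of 10 neuronal markers was between 192 and 435 in WT and between 387 and 1090 in Q175 samples. It was between 311 and 910 in Tyrobp-/- and between 245 and 769 in Q175;Tyrobp-/- samples. The highest Q175 value of both lists was that of replicate 14. Ly6g of neutrophils was at 0 in 4 samples, and every other marker of non-microglial cells had a count in all 18. In bulk RNA, fewer cells of a type and less RNA per cell cannot be told apart. A pair of libraries stood apart from the other 16. Tyrobp-/- replicate 20 and Q175 replicate 14 had TMM factors of 0.807 and 0.859, against 0.964 to 1.12 elsewhere, and mitochondrially encoded genes took 6.12% and 7.26% of their counts, against 0.62% to 2.83% elsewhere. By the labels, 1 of 5 WT, 2 of 3 Tyrobp-/-, 4 of 5 Q175 and 2 of 5 Q175;Tyrobp-/- samples were from females.

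All 8 genes were expressed in every sample, with between 128 (Lig1) and 5637 (Htt) reads. Levels of different genes were compared per exonic length and per TMM-scaled library size (FPKM). Htt had the highest mean level over the 18 samples at 6.83 ± 1.1 FPKM (SD, n = 18), followed by Msh6 at 6.31 ± 1.07 FPKM (SD, n = 18). These 2 do not differ beyond their spread, since Htt was above Msh6 in 10 of 18 samples. Fan1 came next at 4.62 ± 0.466 FPKM (SD, n = 18), and Msh6 exceeded it in 18 of 18 samples. Lig1 stood at 3.36 ± 0.541 FPKM (SD, n = 18), below Fan1 in 17 of 18 samples. Mlh3 (3.08 ± 0.559 FPKM; SD, n = 18) was below Lig1 in 12 of 18 samples, which is within their spread. Pms1 had 2.62 ± 1.06, Pms2 2.32 ± 0.427 and Msh3 1.99 ± 0.227 FPKM (SD, n = 18 each). Pms1 and Pms2 could not be ordered, with Pms1 higher in 9 of 18 samples, and Pms2 exceeded Msh3 in 15 of 18. The median of the 16083 expressed genes was 4.6 FPKM. Of the MutS pair, Msh6 was above Msh3 per length in every sample, by a factor of 3.2 ± 0.65 (SD, n = 18; range 2.38 to 5.15). Among the MutL subunits the means lay closer, with a ratio of Mlh3 to Pms2 of 1.36 ± 0.275 (SD, n = 18; range 0.788 to 1.84). The order and these ratios rest on the lengths used, which merge all annotated exons of a gene. They were 4346 bases for Msh6, 11254 for Msh3 and 24438 for Htt. Before division by length, Msh6 and Msh3 averaged 505.2 and 412.8 normalized counts. Msh3 then had the higher count in WT replicate 1, Tyrobp-/- replicate 20 and Q175 replicate 14.

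**Figure D1:**
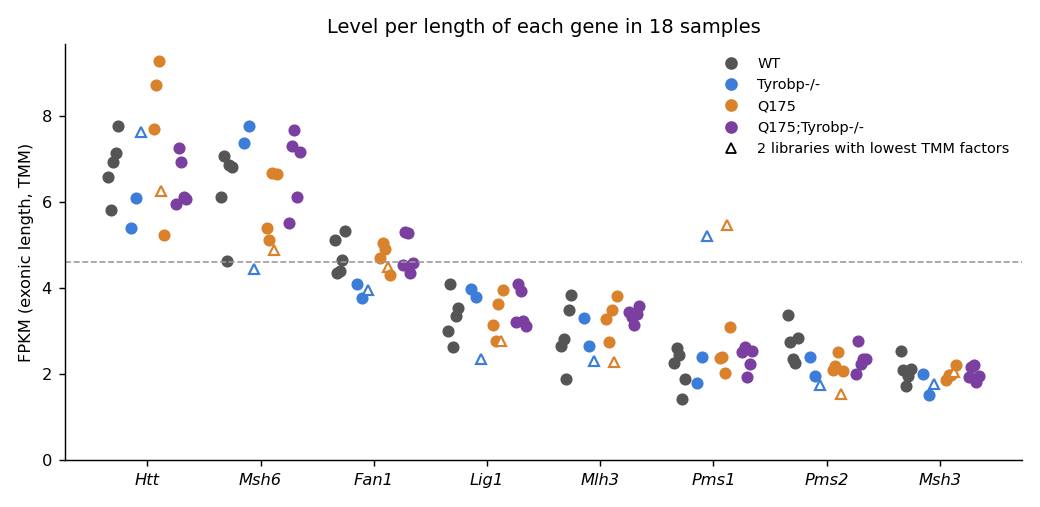
Level of each gene in FPKM (y axis, per exonic length and TMM-scaled library size) in the 18 samples, ordered by mean, with a point per sample coloured by genotype and open triangles for the 2 libraries with the lowest TMM factors. The dashed line is the median of all expressed genes, 4.6 FPKM, and Htt and Msh6 lie above it in nearly every sample while Pms1 crosses it only in the 2 triangles.

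The 8 genes also differed in how much they varied between samples. The SD of log2 CPM over the 18 samples was 0.146 for Fan1 and 0.165 for Msh3, so that only 0.939% and 2.36% of expressed genes varied as little or less. It was 0.227 for Htt and between 0.238 and 0.283 for Lig1, Msh6, Pms2 and Mlh3. All 7 of these genes varied less than the median expressed gene, whose SD was 0.398. Pms1 was the exception with an SD of 0.475. The comparison with all expressed genes was not matched for count level, on which the SD of log2 CPM also depends.

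Whether the repeat allele goes with another level of Htt or of the repair genes was asked by comparing Q175 with WT, and again by comparing Q175;Tyrobp-/- with Tyrobp-/- samples. Whether loss of Tyrobp does was asked by comparing Tyrobp-/- with WT and Q175;Tyrobp-/- with Q175, and the interaction compared the Q175 effect with and without Tyrobp. The 5 comparisons share samples and are not independent of each other. None of the 8 genes passed a false discovery rate (FDR) of 0.1 in any comparison, with either edgeR's quasi-likelihood test or DESeq2's Wald test. Between Q175 and WT, 0 of 8 were called beside 0.0% of the 18266 genes tested, no gene of the 8 had groups that did not overlap beside 1.16% of all genes, and 1 of 8 (Pms2, lower) had an unadjusted p under 0.05 beside 6.24% of all genes. Between Q175;Tyrobp-/- and Q175, 0 of 8 were called beside 0.0111% of 18059 genes, 0 of 8 did not overlap beside 0.853%, and 0 of 8 had an unadjusted p under 0.05 beside 8.01%. Between Tyrobp-/- and WT, 0 of 8 were called beside 0.0222% of 18017 genes, 1 of 8 (Fan1) did not overlap beside 4.5%, and 0 of 8 had an unadjusted p under 0.05 beside 6.82%. Between Q175;Tyrobp-/- and Tyrobp-/-, 0 of 8 were called beside 0.0% of 17723 genes, 1 of 8 (Fan1) did not overlap beside 9.04%, and 1 of 8 (Fan1, higher) had an unadjusted p under 0.05 beside 13.2%. For the interaction, 0 of 8 were called beside 0.0% of 18613 genes, and 2 of 8 (Pms2 and Fan1, both positive) had an unadjusted p under 0.05 beside 6.01%. At most 2 of the 8 genes had such a p in any comparison. The median log2 fold change of the 8 genes was -0.04 in Q175 against WT, where that of all genes was -0.02, and 0.06 against -0.05 in Q175;Tyrobp-/- against Q175. It was -0.10 against 0.02 in Tyrobp-/- against WT, 0.13 against -0.01 in Q175;Tyrobp-/- against Tyrobp-/-, and 0.26 against 0.04 for the interaction.

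**Figure D2:**
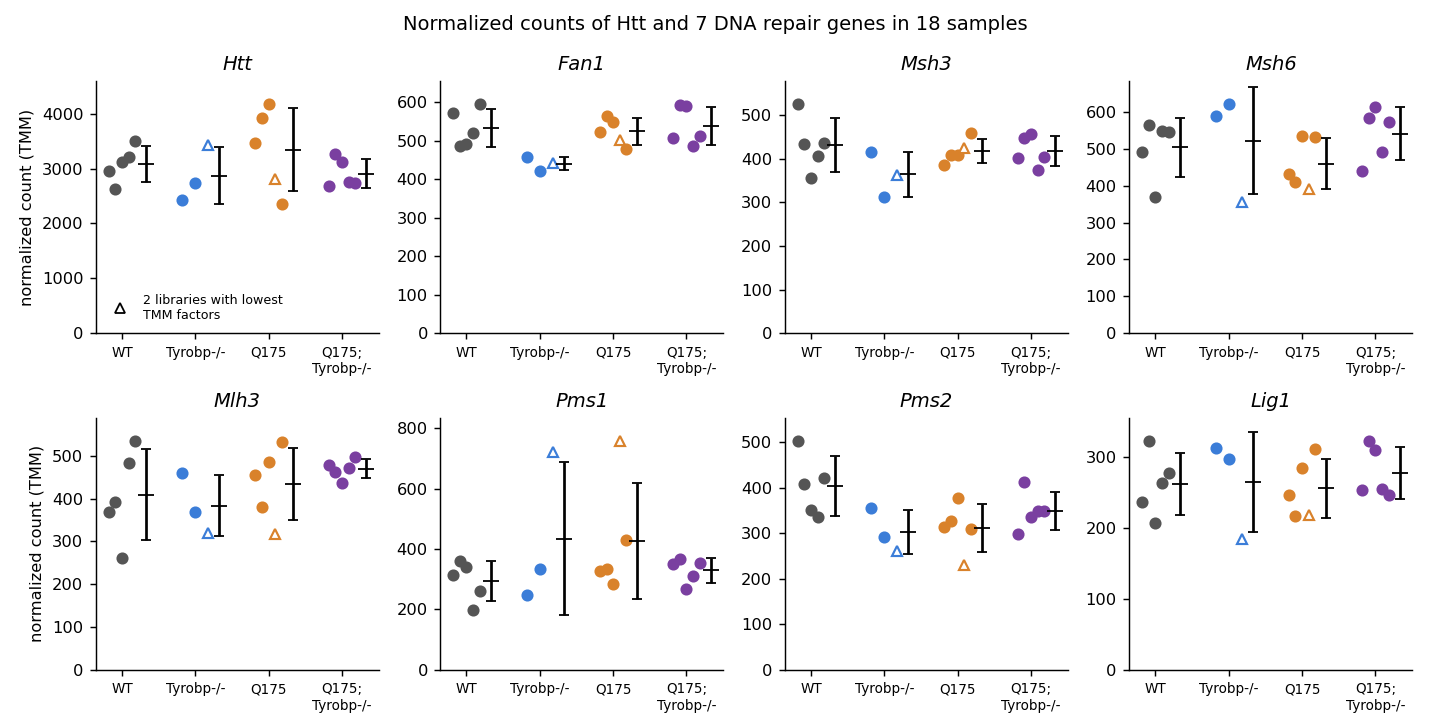
Normalized count (y axis, TMM, from 0) of each gene in each sample, grouped by genotype, with a point per sample, open triangles for the 2 libraries with the lowest TMM factors, and the group mean ± SD in black. The groups overlap for every gene except Fan1, whose 3 Tyrobp-/- samples (422 to 458) lie below all others, and Pms1 is highest in the 2 triangles.

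**Figure D3:**
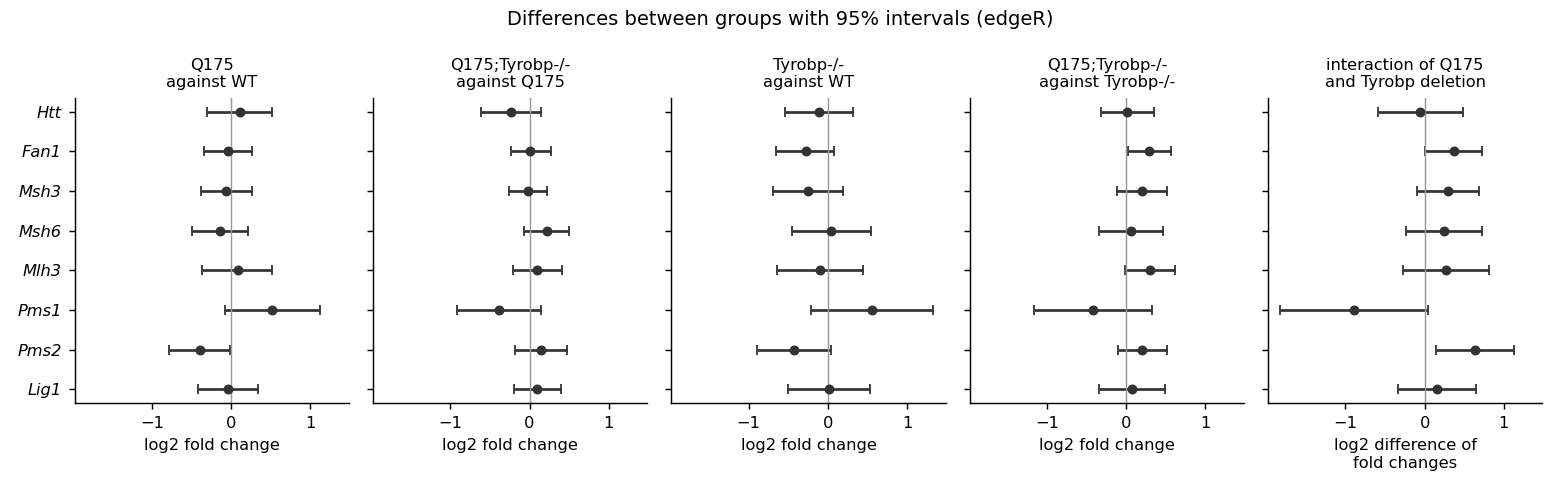
Log2 fold change of each gene (points) with its 95% interval (bars) in the 4 comparisons of 2 groups and for the interaction, from edgeR. Most intervals include 0 and lie within 1 unit on either side, and those of Pms1 are the widest.

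Htt varied most between samples of the Q175 group. Its normalized counts were 3467, 3925, 4179, 2814 and 2356 in Q175 (replicates 3, 4, 9, 14 and 17) and 2964, 2619, 3124, 3209 and 3501 in WT samples (replicates 1, 2, 6, 7 and 8). The Tyrobp-/- samples (replicates 15, 19 and 20) had 2424, 2744 and 3437, and the Q175;Tyrobp-/- samples (replicates 5, 11, 12, 13 and 16) had 2676, 3269, 3116, 2750.4 and 2732. The ranges of all 4 groups overlap, and the highest and the lowest of the 18 values are both from Q175 samples. Htt averaged 3083 ± 325 for WT, 2868 ± 518 for Tyrobp-/-, 3348 ± 759 for Q175 and 2909 ± 266 for Q175;Tyrobp-/- microglia (normalized counts, SD, n of 5, 3, 5 and 5). Q175 and WT did not differ beyond this spread (log2 fold change 0.11, SE 0.19, 95% interval -0.30 to 0.51, edgeR adjusted p = 0.999). An interval of this width allows from a fold of 0.814 to one of 1.42. The log2 fold change was 0.49 with a score of other cells' markers (defined further on) in the fit. WT and Q175 samples do not overlap in that score, so this fit can hardly tell the score from genotype. The value was 0.20 with sex in the fit and 0.03 with total counts as scaling. With 1 sample left out it was between 0.00 (without Q175 replicate 9) and 0.20 (without Q175 replicate 17). Q175;Tyrobp-/- microglia had a mean below that of Q175 microglia (log2 fold change -0.23, SE 0.17, 95% interval -0.61 to 0.14, edgeR adjusted p = 0.567), and 7 of the 25 pairs of samples went the other way. It was -0.10 with total counts as scaling, -0.14 without Q175 replicate 4, -0.15 without replicate 9 and -0.35 without replicate 17. The difference was -0.11 (SE 0.19) in Tyrobp-/- against WT and 0.01 (SE 0.15) in Q175;Tyrobp-/- against Tyrobp-/- samples. Neither passed edgeR's test (adjusted p = 0.999 and 0.979). Without Tyrobp-/- replicate 20 they were -0.30 and 0.20, and without replicate 15 they were 0.00 and -0.09. The interaction was -0.06 (SE 0.26; edgeR adjusted p = 0.964), and 0.10 with total counts as scaling or without Tyrobp-/- replicate 20.

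Fan1 (ENSMUSG00000033458, chromosome 7 from 64346758 to 64374095, minus strand) was the steadiest of the 8. It had 573, 487, 492, 521 and 596 normalized counts in WT, 524, 565, 549, 502 and 479.8 in Q175 and 507, 593, 589.9, 486 and 513 in Q175;Tyrobp-/- samples, in the replicate order given for Htt. The 3 Tyrobp-/- samples had 458, 422 and 442, and they are the lowest 3 of all 18. Fan1 averaged 534 ± 48.6 for WT, 441 ± 17.9 for Tyrobp-/-, 524 ± 34.6 for Q175 and 538 ± 49.98 for Q175;Tyrobp-/- microglia (normalized counts, SD, n of 5, 3, 5 and 5). The Tyrobp-/- group did not overlap with WT, a pattern that 4.5% of all genes tested share (log2 fold change -0.28, SE 0.17, 95% interval -0.65 to 0.08, edgeR adjusted p = 0.859). Nor did it overlap with Q175;Tyrobp-/-, as for 9.04% of all genes tested (log2 fold change 0.29, SE 0.12, 95% interval 0.02 to 0.56, edgeR adjusted p = 0.354; unadjusted p = 0.04). Both comparisons rest on the same 3 Tyrobp-/- samples. In the presence of Tyrobp the Q175 difference was -0.04 (SE 0.14, 95% interval -0.34 to 0.26), and it became 0.04 once that marker score was a term of the fit. Q175;Tyrobp-/- and Q175 differed by 0.01 (SE 0.12, 95% interval -0.24 to 0.27), and by -0.03 with that score. The interaction was 0.37 (SE 0.17, unadjusted p = 0.0436, edgeR adjusted p = 0.716). Leaving out Tyrobp-/- replicate 20 gave -0.32 against WT and 0.32 for Q175;Tyrobp-/- against Tyrobp-/-. Fan1 lies 33.9 Mb from Tyrobp on the same chromosome.

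The MutS subunits gave no difference that passed the test. Msh3 (ENSMUSG00000014850, chromosome 13 from 92211872 to 92355003, minus strand), which recognises loops, had 526, 434, 355, 406 and 437 normalized counts in WT and 385, 409.7, 409, 426 and 460.0 in Q175 samples. It had 417, 313 and 364 in Tyrobp-/- and 402, 448, 458, 375 and 404 in Q175;Tyrobp-/- samples. All 4 ranges overlap, and the 5 Q175 samples fall inside the WT range. Msh3 averaged 432 ± 62.2 for WT, 365 ± 52.0 for Tyrobp-/-, 418 ± 27.6 for Q175 and 418 ± 34.6 for Q175;Tyrobp-/- microglia (normalized counts, SD, n of 5, 3, 5 and 5). The Q175 difference was within the spread (log2 fold change -0.06, SE 0.15, 95% interval -0.38 to 0.26, edgeR adjusted p = 0.999). Tyrobp-/- differed from WT by -0.25 (SE 0.20), and Q175;Tyrobp-/- from Tyrobp-/- by 0.20 (SE 0.14). Against Q175, the Q175;Tyrobp-/- group differed by -0.02 (95% interval -0.26 to 0.22), and by 0.11 with total counts as scaling. With total counts the median of all genes moved from -0.05 to 0.08 in this comparison and from 0.04 to 0.15 for the interaction.

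Msh6 (ENSMUSG00000005370, chromosome 17 from 87975062 to 87990892, plus strand), which recognises base mismatches, had 490.2, 566, 369.6, 549 and 546 normalized counts in WT and 433, 409.7, 535, 391 and 532 in Q175 samples. It had 590.4, 622 and 356 in Tyrobp-/- and 441, 585, 615, 491 and 573 in Q175;Tyrobp-/- samples. The lowest value was that of Tyrobp-/- replicate 20, while the other 2 samples of that group were among the 3 highest, so the whole range of the gene lay within 1 group. Msh6 averaged 504 ± 80.5 for WT, 523 ± 145 for Tyrobp-/-, 460.1 ± 68.4 for Q175 and 541 ± 72.2 for Q175;Tyrobp-/- microglia (normalized counts, SD, n of 5, 3, 5 and 5). Q175;Tyrobp-/- samples exceeded Q175 samples in 21 of 25 pairs (log2 fold change 0.22, SE 0.13, 95% interval -0.07 to 0.50, edgeR adjusted p = 0.534). This was the smallest unadjusted p of the 8 genes in that comparison (0.125). Q175 against WT gave -0.14 (SE 0.16, edgeR adjusted p = 0.999). Tyrobp-/- against WT gave 0.04 (SE 0.22), or 0.22 without replicate 20. The interaction was 0.25 (SE 0.23), or -0.08 without the 2 libraries that stood apart. Per length, the ratio of Msh6 to Msh3 averaged 3.04 ± 0.469 for WT, 3.78 ± 1.31 for Tyrobp-/-, 2.85 ± 0.386 for Q175 and 3.35 ± 0.308 for Q175;Tyrobp-/- samples (SD, n of 5, 3, 5 and 5). These ranges overlap as well.

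Of the MutL subunits, Mlh3 (ENSMUSG00000021245, chromosome 12 from 85234520 to 85270599, minus strand), whose protein carries an endonuclease site, had 369.6, 393, 262, 484 and 535 normalized counts in WT and 456, 381, 486, 317 and 531 in Q175 samples. It had 460.0, 369.6 and 320.4 in Tyrobp-/- and 479, 462, 437, 472 and 498 in Q175;Tyrobp-/- samples. The 5 Q175;Tyrobp-/- values lie close together, and the WT range takes in every other sample. Mlh3 averaged 409 ± 106 for WT, 383 ± 70.8 for Tyrobp-/-, 434 ± 85.1 for Q175 and 469.7 ± 22.3 for Q175;Tyrobp-/- microglia (normalized counts, SD, n of 5, 3, 5 and 5). Q175;Tyrobp-/- exceeded Tyrobp-/- in 14 of 15 pairs (log2 fold change 0.30, SE 0.14, 95% interval -0.01 to 0.61, edgeR adjusted p = 0.398; unadjusted p = 0.0592). In Q175 against WT the difference was 0.08 (95% interval -0.37 to 0.52), and 0.00 with total counts as scaling. It was 0.10 (95% interval -0.21 to 0.41) in Q175;Tyrobp-/- against Q175 and -0.10 (95% interval -0.64 to 0.44) in Tyrobp-/- against WT.

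Pms1 (ENSMUSG00000026098, chromosome 1 from 53189187 to 53297018, minus strand), the MutL subunit without a known nuclease site, was set apart by 2 samples. Its normalized counts were 313, 362, 339, 196 and 260.1 in WT and 328, 334, 282, 759 and 429 in Q175 samples. They were 247, 333 and 722 in Tyrobp-/- and 349.6, 366, 268, 309 and 353 in Q175;Tyrobp-/- samples. The values of Q175 replicate 14 and Tyrobp-/- replicate 20, the 2 libraries that stood apart, are above those of the other 16 samples, which reach 429. Pms1 averaged 294 ± 66.4 for WT, 434 ± 253 for Tyrobp-/-, 426 ± 193 for Q175 and 329 ± 40.3 for Q175;Tyrobp-/- microglia (normalized counts, SD, n of 5, 3, 5 and 5). Comparing Q175 with WT (log2 fold change 0.52, SE 0.28, 95% interval -0.08 to 1.12, edgeR adjusted p = 0.902) the log2 fold change was 0.20 without Q175 replicate 14 and -0.47 with the non-microglial score in the fit. Comparing Tyrobp-/- with WT (log2 fold change 0.56, SE 0.35, 95% interval -0.21 to 1.33, edgeR adjusted p = 0.879) it was -0.07 without Tyrobp-/- replicate 20 and -0.15 with the score. Comparing Q175;Tyrobp-/- with Q175 (log2 fold change -0.38, SE 0.24, 95% interval -0.91 to 0.14, edgeR adjusted p = 0.537) it was -0.09 without Q175 replicate 14. Comparing Q175;Tyrobp-/- with Tyrobp-/- (log2 fold change -0.42, SE 0.33, 95% interval -1.16 to 0.32, edgeR adjusted p = 0.626) it was 0.22 without Tyrobp-/- replicate 20. The interaction of -0.89 (SE 0.44, edgeR adjusted p = 0.716) was -0.02 without both.

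Pms2 (ENSMUSG00000079109, chromosome 5 from 143909964 to 143933968, plus strand), the other MutL endonuclease subunit, was lower in both single mutants than in WT on average, within the overlap of the groups. It had 504, 409, 351, 336 and 422 normalized counts in WT, 313, 327, 377, 230.3 and 309 in Q175, 356, 291 and 262 in Tyrobp-/- and 298, 414, 335, 350.1 and 349.9 in Q175;Tyrobp-/- samples. The lowest values are those of Q175 replicate 14 and Tyrobp-/- replicate 20, and the highest is that of WT replicate 1. Pms2 averaged 404 ± 66.7 for WT, 303 ± 48.4 for Tyrobp-/-, 311 ± 52.6 for Q175 and 349 ± 41.7 for Q175;Tyrobp-/- microglia (normalized counts, SD, n of 5, 3, 5 and 5). Q175 exceeded WT in 2 of 25 pairs (log2 fold change -0.39, SE 0.18, 95% interval -0.78 to -0.01, edgeR adjusted p = 0.782; unadjusted p = 0.0461), and Tyrobp-/- exceeded WT in 2 of 15 pairs (log2 fold change -0.43, SE 0.21, 95% interval -0.89 to 0.04, edgeR adjusted p = 0.784). These differences were -0.08 and -0.35 with the non-microglial score in the fit, and the first was -0.19 with sex in the fit. The scores of WT and Q175 samples do not overlap, so the fit for Q175 against WT can hardly tell the score from genotype. Q175;Tyrobp-/- differed by 0.14 (SE 0.15) from Q175 and by 0.20 (SE 0.14) from Tyrobp-/- samples. The interaction of 0.64 (SE 0.23, 95% interval 0.15 to 1.13) had the smallest unadjusted p of the 8 genes (0.013), with an edgeR adjusted p of 0.716. It was 0.41 without the 2 libraries that stood apart.

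Lig1 (ENSMUSG00000056394, chromosome 7 from 13277283 to 13311433, plus strand, 17.1 Mb from Tyrobp) had 236, 322, 206, 263 and 277 normalized counts in WT, 246, 217, 285, 218 and 310.2 in Q175, 312, 297 and 184 in Tyrobp-/- and 252, 323, 309.5, 254 and 246 in Q175;Tyrobp-/- samples. The ranges overlap, and the lowest value is again that of Tyrobp-/- replicate 20. Lig1 averaged 261 ± 43.6 for WT, 264 ± 70.01 for Tyrobp-/-, 255 ± 41.3 for Q175 and 277 ± 36.3 for Q175;Tyrobp-/- microglia (normalized counts, SD, n of 5, 3, 5 and 5). All 5 differences were small, from -0.04 (SE 0.18) in Q175 against WT to 0.16 (SE 0.23) for the interaction. Their signs are not fixed. Q175 against WT gave 0.01 with sex as a term, Tyrobp-/- against WT (0.01) gave -0.01 with total counts as scaling, and the interaction gave -0.14 without the 2 libraries that stood apart.

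Lig1 and Msh6 followed the level of proliferation genes across the samples. This level was the mean log2 normalized count of 16 genes of DNA replication and mitosis, such as Mki67 and the Mcm helicase subunits, and no comparison of it between groups passed the test (exact permutation test, 2-sided, adjusted p between 0.89 and 0.891 over 36 tests of 9 lists in 4 comparisons). Over the 18 samples, Pearson's r with log2 CPM was 0.74 for Lig1 (permutation test, 2-sided, p = 0.00042, adjusted p = 0.0044 over 24 relations) and 0.69 for Msh6 (permutation p = 0.00199, adjusted p = 0.00796). Spearman's rho was 0.75 for Lig1 (permutation p = 0.00044, adjusted p = 0.00528) and 0.68 for Msh6 (permutation p = 0.00269, adjusted p = 0.0161). Without the 2 samples farthest from the median, WT replicates 6 and 2, r was 0.66 and 0.61, and after removing each group's mean it was 0.78 and 0.71. The other 6 genes had r between -0.46 (Htt) and 0.32 (Mlh3). Lig1 and Msh6 also followed the level of the 10 microglial markers, with r of 0.72 (permutation p = 0.00076, adjusted p = 0.00456) and 0.78 (permutation p = 0.00018, adjusted p = 0.00432) and rho of 0.68 (permutation p = 0.00235, adjusted p = 0.0161) and 0.80 (permutation p = 0.00016, adjusted p = 0.00384). Without Q175 replicate 4 and WT replicate 6, these r were 0.67 and 0.76. Mlh3 had an r of 0.59 with the microglial level (permutation p = 0.0105, adjusted p = 0.0362), a rho of 0.51 (permutation p = 0.0312, adjusted p = 0.107) and an r of 0.53 without the same 2 samples.

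The 2 genes whose promoters hold the core of an E2F site are Msh3 and Lig1. E2F factors switch on replication genes at the start of S phase. Promoter windows around each annotated start were taken from RefSeq for GRCm38.p6, and all 8 genes matched. Both strands were searched for TTTCGCGC and TTTGGCGC, which 0.8% of 32851 promoters hold. The matches are shown with 11 bases on either side, in the direction of the gene and with the core in capitals. Those of Msh3 overlap each other.
Msh3, chr13:92355187-92355216, minus strand, core on the strand of the gene: ttgccgtcaagTTTGGCGCgaaatcgcagc
Msh3, chr13:92355183-92355212, minus strand, core on the opposite strand: cgtcaagtttgGCGCGAAAtcgcagccctg
Lig1, chr7:13278841-13278870, plus strand, core on the opposite strand: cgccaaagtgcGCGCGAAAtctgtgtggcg
The cores of Msh3 begin 202 and 198 bases before its start and that of Lig1 begins 27 bases after one of its 3 listed starts. With the proliferation level, r was 0.16 for Msh3 and 0.74 for Lig1, which hold matches, and 0.69 for Msh6, which holds none. Whether E2F factors act at these sites was not tested. Of the other motifs searched on both strands, GGGCGG was found in 6 of the 8 genes (35.7% of all promoters), CCAAT in Msh6, Mlh3, Pms1 and Pms2 (37.4%), and TATAAA (13.6%), the NRF1 core (1.0%) and CCGGAAGT (3.9%) in none.

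Pms1 and Pms2 followed the markers of other cells in opposite directions. A non-microglial score was taken as the mean of the scaled astrocyte, neuron and oligodendrocyte levels of a sample. Pms1 had an r of 0.71 with it over 18 samples (permutation p = 0.00055, adjusted p = 0.0044) and a rho of 0.46 (permutation p = 0.0592, adjusted p = 0.158). Pms2 had an r of -0.70 (permutation p = 0.00102, adjusted p = 0.0049) and a rho of -0.66 (permutation p = 0.00419, adjusted p = 0.0201). Leaving out the 2 samples farthest from the median, Q175 replicate 14 and Q175;Tyrobp-/- replicate 5, gave 0.64 for Pms1 and -0.56 for Pms2. Leaving out the 2 libraries that stood apart gave 0.44 for Pms1 and -0.49 for Pms2, and these values were not tested. Both relations thus rest in part on those samples, that of Pms1 more so. After removing group means r was 0.65 for Pms1 and -0.58 for Pms2. Msh6 (r = -0.50, permutation p = 0.0342, adjusted p = 0.103), Lig1 (-0.46), Fan1 (-0.34), Htt (-0.16), Msh3 (-0.14) and Mlh3 (-0.01) had negative r that did not pass the correction. The astrocyte level, 1 part of this score, was higher in Q175 than in WT samples in 25 of 25 pairs (log2 difference 1.11; exact permutation test, 2-sided, p = 0.00794, adjusted p = 0.143 over 36 tests; 0.00794 is the smallest p that 5 against 5 samples allow). The score itself was between -0.865 and -0.292 in WT and between -0.039 and 1.53 in Q175 samples. These ranges do not overlap, so in Q175 against WT a fit with the score can hardly tell it from genotype. The part of other cells in the Pms1 and Pms2 differences was not tested beyond the fit with the score as a term.

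**Figure D4:**
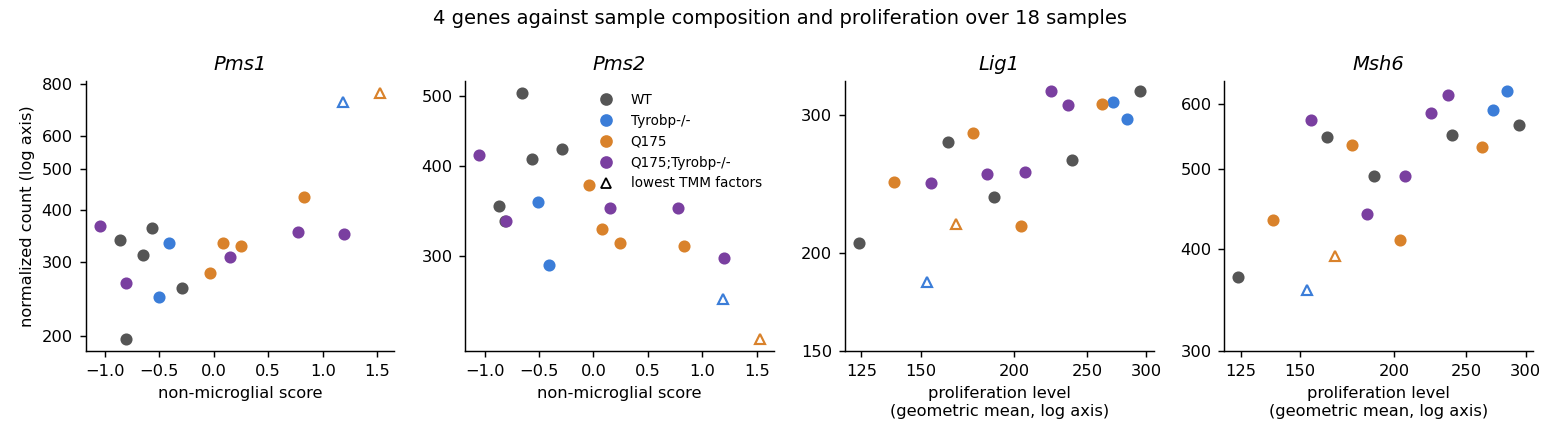
Normalized count (y axis, log scale) of Pms1 and Pms2 against the non-microglial score of a sample, and of Lig1 and Msh6 against the geometric mean of 16 proliferation genes (x axis, log scale), with a point per sample coloured by genotype and open triangles for the 2 libraries with the lowest TMM factors. The triangles are at the top for Pms1 and at the bottom for Pms2, and Lig1 and Msh6 are higher where proliferation genes are higher (r = 0.74 and 0.69).

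Correlations between the genes themselves were taken over the same 18 samples, which share their library scaling, and are given as a description. Lig1 and Msh6 had the highest r, 0.89. Fan1 and Msh3 had 0.66, Msh6 and Mlh3 0.63, Mlh3 and Lig1 0.62, and Fan1 and Htt 0.52. Pms1 had negative values with all 7, from -0.11 with Htt and Msh3 to -0.60 with Pms2. Htt had -0.33 with Lig1 and -0.28 with Msh6, and values from -0.11 to 0.12 with Msh3, Mlh3, Pms1 and Pms2. Among all 16083 expressed genes, those most like Lig1 were Pde7a, Usp25 and Msh6 (r of 0.90, 0.90 and 0.89), and those most like Msh6 were Usp25, Tmpo and Cdc25a (0.90 each), where Cdc25a is a phosphatase of the cell cycle and Tmpo a protein of the nuclear lamina. Fan1 was most like Fryl, Vps53 and Zzef1 (0.96, 0.91 and 0.89), and Htt most like Ppfia1, Sptbn5 and Ice1 (0.86, 0.86 and 0.85). Nearest to Pms1 were Bmpr1a, Cox5a and Taf13 (0.94 each), which encode a receptor for bone morphogenetic proteins, a subunit of cytochrome oxidase and a subunit of the general transcription factor TFIID. Pms2 was nearest to Zfp939, Ddb2 and Ap4e1 (0.88, 0.85 and 0.83), of which Ddb2 recognises ultraviolet damage in DNA, Msh3 to Il17rb, C230062I16Rik and Greb1l (0.82, 0.80 and 0.79), and Mlh3 to the gene models Gm37310, Gm43857 and Gm37968 (0.93, 0.92 and 0.89).

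Several of these genes share a start region or exon ends with a neighbour on the other strand, and the libraries did not keep strand. Pms1 starts 77 bases from Ormdl1, a regulator of sphingolipid synthesis, and their r was 0.51. Ormdl1 was lower in Q175;Tyrobp-/- than in Tyrobp-/- samples on average, without passing the test (log2 fold change -0.50, SE 0.20, 95% interval -0.95 to -0.06, edgeR adjusted p = 0.333). Pms2 starts 117 bases from Aimp2, a scaffold protein of the tRNA synthetase complex, with an r of 0.17. For Aimp2, the Tyrobp-/- samples did not overlap with Q175;Tyrobp-/- samples, as for 9.04% of all genes tested (log2 fold change 0.36, SE 0.16, 95% interval -0.01 to 0.73, edgeR adjusted p = 0.387). Fan1 shared this, but the Tyrobp-/- and WT samples of Aimp2 overlapped, unlike those of Fan1. Lig1 shares 247 bases (5.79% of its exonic length) with Zswim9, and Msh6 shares 34 bases with Fbxo11, both on the opposite strand. Pms2 shares 85 bases with Rsph10b and 394 bases with Gm42421 on its own strand. Gm42421 had at most 1.08 normalized counts in a sample, and Gm28777 and Gm28778 next to Pms1 had 0 in every sample. Reads in shared bases may belong to either gene, so the counts of Msh6, Pms1, Pms2 and Lig1 are uncertain by the share of reads that fall there.

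The wider repair machinery was described with lists of genes chosen by function. Of 18 partners of mismatch repair and DNA resynthesis (Exo1, the sliding clamp Pcna, clamp loaders, replication protein A, DNA polymerase delta and others), 0 passed an FDR of 0.1 in any of the 5 comparisons. Their median log2 fold change in Q175 against WT was -0.03 (range -0.38 to 0.26), close to that of all genes (-0.02), and 0 had an unadjusted p under 0.05. The smallest p were those of Rfc3 (-0.31, SE 0.29, unadjusted p = 0.301, edgeR adjusted p = 0.999) and Rpa3 (-0.38, SE 0.36, unadjusted p = 0.311, edgeR adjusted p = 0.999). The median was -0.06 in Q175;Tyrobp-/- against Q175, where 0 of 18 had an unadjusted p under 0.05. In Tyrobp-/- against WT it was 0.08, also with 0 of 18. In Q175;Tyrobp-/- against Tyrobp-/- the median was -0.07, and Pcna (-0.54, SE 0.12, unadjusted p = 0.00156, edgeR adjusted p = 0.291), Hmgb1 (-0.59, SE 0.14, unadjusted p = 0.00235, edgeR adjusted p = 0.291) and Rfc3 (-0.61, SE 0.17, unadjusted p = 0.00611, edgeR adjusted p = 0.291) were the 3 of 18 with an unadjusted p under 0.05, all lower, beside 13.2% of all genes (1460 of these 2343 genes lower).

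Among 9 genes of crosslink repair, the pathway of Fan1, 0 passed the FDR. Ercc4, the XPF subunit of a structure-specific nuclease, had the smallest p in Q175;Tyrobp-/- against Tyrobp-/- samples (0.38, SE 0.12, unadjusted p = 0.0120, edgeR adjusted p = 0.291) and for the interaction (0.56, SE 0.23, unadjusted p = 0.0249, edgeR adjusted p = 0.716). The medians of the list were -0.02 for Q175 against WT, -0.12 for Q175;Tyrobp-/- against Q175, -0.06 for Tyrobp-/- against WT and -0.04 for the last pair. Of 14 genes of base excision and single strand break repair, 0 passed the FDR. Lig3, the ligase of single strand break repair, had 0.37 (SE 0.12, unadjusted p = 0.0123, edgeR adjusted p = 0.294) in Q175;Tyrobp-/- against Tyrobp-/- and 0.41 (SE 0.19, unadjusted p = 0.0482, edgeR adjusted p = 0.716) for the interaction. The medians of this list were -0.01, 0.04, -0.07 and 0.10 in the same order of comparisons.

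Of 13 genes whose proteins bind huntingtin, 9 had positive values in Q175 against WT (median 0.22), where 8538 of all 18266 genes did (median -0.02). In Q175;Tyrobp-/- against Q175, 12 of 13 had negative values (median -0.31), where 9946 of all 18059 genes did (median -0.05). Both comparisons share the Q175 samples, and 0 of 13 passed the FDR in either. Hip1, an endocytic adaptor, was the 1 gene of 13 with an unadjusted p under 0.05 in the second, beside 8.01% of all genes (-0.51, SE 0.20, unadjusted p = 0.0258, edgeR adjusted p = 0.533), with 0.30 (SE 0.20, edgeR adjusted p = 0.964) in Q175 against WT. Its relative Hip1r had 0.38 (SE 0.21, edgeR adjusted p = 0.920) and -0.45 (SE 0.22, edgeR adjusted p = 0.533). The marker levels of other brain cells also differed on the log2 scale in Q175 against WT, by 1.11 for astrocytes, 0.74 for medium spiny neurons, 0.65 for neurons, 0.55 for oligodendrocytes and 0.52 for oligodendrocyte precursors. In Q175;Tyrobp-/- against Q175 these differences were -0.45, -0.96, -0.28, -0.22 and -0.43. In the latter, all 10 markers of medium spiny neurons had negative values, and 5 of them had an unadjusted p under 0.05. None of these levels passed the exact permutation test after adjustment over 36 tests. In Q175 against WT, the levels of astrocytes and of oligodendrocyte precursors were both higher in 25 of 25 pairs. Each had the smallest p that 5 against 5 samples allow (exact permutation test, 2-sided, p = 0.00794, adjusted p = 0.143). Complete separation was thus not enough to pass here. The part of these levels in the list was not tested. The palmitoyl transferases Zdhhc13 (-0.41, SE 0.14) and Zdhhc17 (-0.27, SE 0.10) and the huntingtin-associated protein gene F8a (-0.59, SE 0.20) were the 3 of 13 with an unadjusted p under 0.05 in Q175;Tyrobp-/- against Tyrobp-/-, all lower, beside 13.2% of all genes (1460 of 2343 lower), with edgeR adjusted p of 0.296, 0.327 and 0.298. In Tyrobp-/- against WT 0 of 13 had one, with a median of -0.07. The values of the 16 proliferation genes had medians of -0.12, 0.07, 0.19 and -0.28 in the 4 comparisons of 2 groups, and 0 passed the FDR or had an unadjusted p under 0.05.

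**Figure D5:**
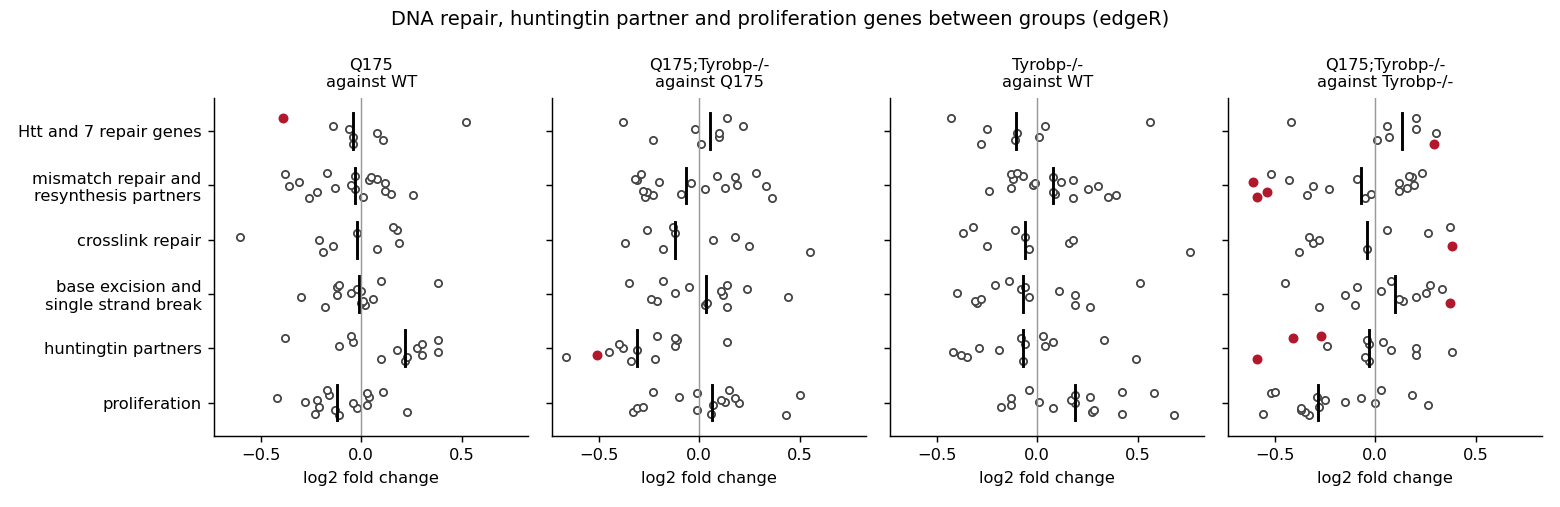
Log2 fold change (x axis, edgeR) of each gene of the lists in the 4 comparisons of 2 groups, with open points for genes with an unadjusted p of 0.05 or more, red points for those under it, and a black bar at the median of the list. No point passes an FDR of 0.1, and the medians lie between -0.31 and 0.22.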

How the data were processed

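RNA of CD11b-enriched striatal cells was made into libraries with SMART-Seq v4, which keeps no strand. By the processing notes, the authors used STAR for alignment and featureCounts for counting, and the deposited values are raw counts of 55536 genes per sample. The methods name GRCm38 and the processing notes of the labels another build, and gene IDs were matched to GENCODE M21 for symbols, positions and exonic lengths. Another 2 columns, which match no sample given here, were left out.

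Groups came from the labels. Genes that reached 1 CPM in any of the samples fitted were tested with edgeR 4.0.16 (R 4.3.3; TMM, quasi-likelihood test, Benjamini-Hochberg FDR of 0.1), each pair of groups in its own fit and the interaction over all 4 groups. Levels of marker lists were compared by exact permutation tests, and correlations by 100000 permutations (Python 3.11.15, numpy 2.4.6, scipy 1.17.1). The scripts were tested on simulated data. Alternatives were DESeq2 1.42.0, other scalings and filters, sex or a non-microglial score as covariates, 1 common fit and leaving out samples.

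The genes and lists were chosen with earlier results of these data known. Named beside the 8 genes were Tyrobp, neighbours that overlap them or start close by on the other strand, the 3 genes most correlated with each, and from each list the called genes and the 2 with the smallest p, of which some are not reported here. Rfc3 and Zdhhc17 in Q175;Tyrobp-/- against Tyrobp-/- were named after their values were seen.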

Additional observations from a re-analysis of the deposited data

How the results depend on the processing

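No paired analysis was possible because the groups have no replicate number in common. In all 5 comparisons, 0 of the 8 genes passed an FDR of 0.1 under every alternative and with each sample left out in turn. Recomputed with another scaling, filter, test, fit or covariate, 14 log2 fold changes of the 8 genes changed sign at 2 decimals, and with a sample left out 28 did. Values that rounded to 0.00 were not counted as a change of sign. The causes were not tested. With the non-microglial score in the fit, the sign turned for Fan1 (0.04, Q175 against WT), Pms1 (-0.47, Q175 against WT), Fan1 (-0.03, Q175;Tyrobp-/- against Q175), Pms1 (-0.15, Tyrobp-/- against WT) and Lig1 (-0.02, the interaction). With sex in the fit, the sign turned for Lig1 (0.01, Q175 against WT) and Fan1 (-0.01, Q175;Tyrobp-/- against Q175). With total counts as scaling, the sign turned for Msh3 (0.11, Q175;Tyrobp-/- against Q175), Lig1 (-0.01, Tyrobp-/- against WT) and Htt (0.10, the interaction). In 1 fit over all 4 groups, the sign turned for Msh6 (-0.03, Tyrobp-/- against WT) and Lig1 (-0.06, Tyrobp-/- against WT). Without both libraries that stood apart, an alternative chosen after seeing the data, the sign turned for Msh6 (-0.08, the interaction) and Lig1 (-0.14, the interaction). Leaving out 1 sample gave these ranges across 0 in Q175 against WT: Msh3 (-0.12 to 0.03), Mlh3 (-0.04 to 0.17) and Lig1 (-0.13 to 0.02). In Q175;Tyrobp-/- against Q175 they were those of Fan1 (-0.03 to 0.07) and Msh3 (-0.05 to 0.01). In Tyrobp-/- against WT they were those of Msh6 (-0.09 to 0.22), Mlh3 (-0.25 to 0.01), Pms1 (-0.07 to 0.84) and Lig1 (-0.13 to 0.18). In Q175;Tyrobp-/- against Tyrobp-/- they were those of Htt (-0.09 to 0.20), Msh6 (-0.13 to 0.20), Pms1 (-0.70 to 0.22) and Lig1 (-0.10 to 0.22). In the interaction they were those of Htt (-0.18 to 0.10) and Lig1 (-0.05 to 0.29). For the marker and proliferation levels, whose alternatives were also chosen after seeing the data, total counts as scaling gave -0.07 for monocytes and neutrophils in Q175 against WT (-0.01 with DESeq2's size factors), -0.25 for endothelial cells in Q175;Tyrobp-/- against Q175, and 0.04 for both microglia and astrocytes in Q175;Tyrobp-/- against Tyrobp-/-. With 1 sample left out, log2 differences in Q175 against WT ranged as follows for microglia (-0.21 to 0.10), neurons (0.37 to 0.76), oligodendrocytes (0.33 to 0.78), endothelial cells (-0.33 to 0.07), monocytes and neutrophils (-0.56 to 0.56) and proliferation (-0.22 to 0.09). With 1 sample left out, log2 differences in Q175;Tyrobp-/- against Q175 ranged as follows for medium spiny neurons (-1.39 to -0.73), oligodendrocyte precursors (-0.57 to -0.31), endothelial cells (-0.48 to -0.24) and monocytes and neutrophils (-0.20 to 0.41). With 1 sample left out, log2 differences in Tyrobp-/- against WT ranged as follows for astrocytes (0.12 to 1.22), medium spiny neurons (-0.56 to 0.66), oligodendrocyte precursors (-0.54 to 0.10), endothelial cells (-0.14 to 0.61) and monocytes and neutrophils (0.87 to 1.99). With 1 sample left out, log2 differences in Q175;Tyrobp-/- against Tyrobp-/- ranged as follows for microglia (-0.33 to 0.11), astrocytes (-0.55 to 0.54), neurons (-0.43 to 0.34), medium spiny neurons (-0.87 to 0.34), oligodendrocytes (-0.07 to 0.21), oligodendrocyte precursors (-0.01 to 0.63), endothelial cells (-1.15 to -0.40) and monocytes and neutrophils (-1.69 to -0.99). DESeq2 called more of all genes than edgeR, with 231 higher and 3 lower in Q175 against WT, 12 and 29 in Q175;Tyrobp-/- against Q175, 80 and 88 in Tyrobp-/- against WT, 270 and 410 in Q175;Tyrobp-/- against Tyrobp-/-, and 1 and 1 for the interaction. The edgeR counts were 0, 2, 4, 0 and 0. The lowest DESeq2 adjusted p of the 8 genes was 0.165 (Fan1, Q175;Tyrobp-/- against Tyrobp-/-). Each 95% interval given spans the differences that these samples are compatible with, so no gene was shown to be unchanged.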
